A study of Saccharomyces cerevisiae and Schizosaccharomyces pombe with 10 samples.

Results

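Box H/ACA snoRNAs are small nucleolar RNAs that fold into hairpins joined by a hinge (the H box) and closed by an ACA triplet near the 3' end. Bound to the pseudouridine synthase Cbf5 and its partner proteins Gar1, Nhp2 and Nop10, they guide the conversion of chosen uridines of ribosomal RNA to pseudouridine, and a few act in the cleavage of pre-rRNA instead. In budding yeast most of them are transcribed by RNA polymerase II from genes of their own, and their precursors are cut or trimmed back to the mature ends. A few lie in introns of protein-coding genes and are released from the excised intron.

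All 29 listed box H/ACA genes were found by symbol among the 76 snoRNA genes of the R64 annotation. Of the 101128 alignments in the S. cerevisiae pool, 26354 belonged to these genes. An alignment was counted for a gene when it lay on the gene's strand and at least 50% of the read or of the gene overlapped, and each alignment is called a read. The pool comes from strain BY4741, a laboratory haploid with the genotype MATa leu2D0 met15D0 ura3D0, grown in rich glucose medium and harvested in exponential growth. The labels name 2 replicates of nascent RNA, the chromatin-held RNA of transcribing polymerases, sequenced as cDNA on a Pacific Biosciences instrument. Both replicates stand in the same file and the read names do not tell them apart, so no spread between replicates could be given and no test between samples was possible. Ranges in brackets after a share are its 95% Wilson interval, and after a count its exact Poisson interval; both reflect the number of reads alone. Finished snoRNA held in the nascent fraction was not told apart from RNA still being made, and fewer cells and less RNA per cell cannot be told apart in such a pool.

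The read names show 5 sequencing movies, 4 earlier and 1 later. Median read length was 101 nt in the earlier movies and 185 nt in the later one. The H/ACA genes held 26.1% of all reads (25.8 to 26.3). Within single movies the share was 18.5% to 20.5% in the 4 earlier ones and 38.2% in the later one. H/ACA genes are long for snoRNAs, with a median annotated length of 204 nt against 98 nt for the 47 other snoRNA genes. The share of these others went the opposite way, from 77.0% in the earlier movies to 53.7% in the later one. The part of read length in this difference was not tested.

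Reads per gene spanned from 18 to 4158 with a median of 550. SNR9, a guide for 25S rRNA on chromosome XV (407948 to 408134), had the most reads, 4158 (4033 to 4286), or 15.8% of the H/ACA total. The 25S guides SNR43 (chromosome III, 107504 to 107712) and SNR46 (chromosome VII, 545370 to 545566) followed with 2800 and 2580 reads. SNR44 (chromosome XII, 856710 to 856920), which guides sites in both 18S and 25S rRNA, had 2224. SNR85 (chromosome XIII, 67768 to 67938), an 18S guide, had 1933. These 5 genes together held 52.0% of H/ACA reads, and the same 5 led when reads were divided by gene length, from 2224 reads per 100 nt for SNR9 to 1054 for SNR44.

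The genes for 25S rRNA sites alone, 16 in number, held 15795 reads. Besides those named, they include SNR37 with 1551 reads, SNR191 with 1081, SNR3 with 730, SNR34 with 585, SNR32 with 550, SNR5 with 458 and SNR11 with 432. At the lower end of this group, SNR82 had 290 reads, SNR8 had 236, SNR42 had 173 and SNR33 had 94. The 6 guides of 18S rRNA held 4836 reads, with 1408 for SNR83, 1007 for SNR31, 357 for SNR35, 67 for SNR161 and 64 for SNR36 beside SNR85. Guides with sites in both rRNAs held 4005 reads, 1078 from SNR49, 434 from SNR80 and 269 from SNR189 in addition to SNR44. SNR81, which guides a site in the spliceosomal U2 RNA as well as in 25S rRNA, had 947 reads.

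The members of the family that act in the cleavages that release 18S rRNA were not among the abundant ones. SNR30 (chromosome XII, 198784 to 199389), which is needed for 18S rRNA formation and is essential for growth, had 210 reads (183 to 240). SNR10 (chromosome VII, 345986 to 346230), which takes part in processing and also guides a 25S site, had 561 (516 to 609). That count is close to the median of 550 over the family. The fewest reads came from SNR86, the longest gene (chromosome XIII, 762110 to 763113, 1004 nt), with 18 (10.7 to 28.4). SNR84 (chromosome IV, 1492477 to 1493026, 550 nt) had 59 (44.9 to 76.1), and SNR36 (182 nt) had 64 (49.3 to 81.7), so low counts were not confined to long genes.

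Gene length and read count were only weakly related over the 29 genes (Spearman's rho -0.10, Pearson's r -0.26). Among the 23 genes of up to 300 nt, rho was 0.22 and r -0.05. These correlations describe genes that share a pool and its length range, and carry no test. The 6 genes over 300 nt ranged from SNR86 with 18 reads to SNR37 (386 nt) with 1551. Relative to the depth of each set of movies, 25 of the 29 genes were more frequent in the later movie. SNR84 showed the highest ratio, 5.48, and the intronic SNR191 (274 nt) followed with 4.45. Lower in the later movie were SNR161 (ratio 0.74), SNR33 (0.83), SNR9 (0.87) and SNR189 (0.99), all under 190 nt. Other genes under 190 nt were more frequent there, namely SNR85, SNR49, SNR36, SNR80 and SNR32. Among these, SNR85 (171 nt) had a ratio of 3.55, next after SNR191. The ratio thus did not follow length alone, with rho 0.51 between them over the 29 genes, also without a test.

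**Figure D1:**
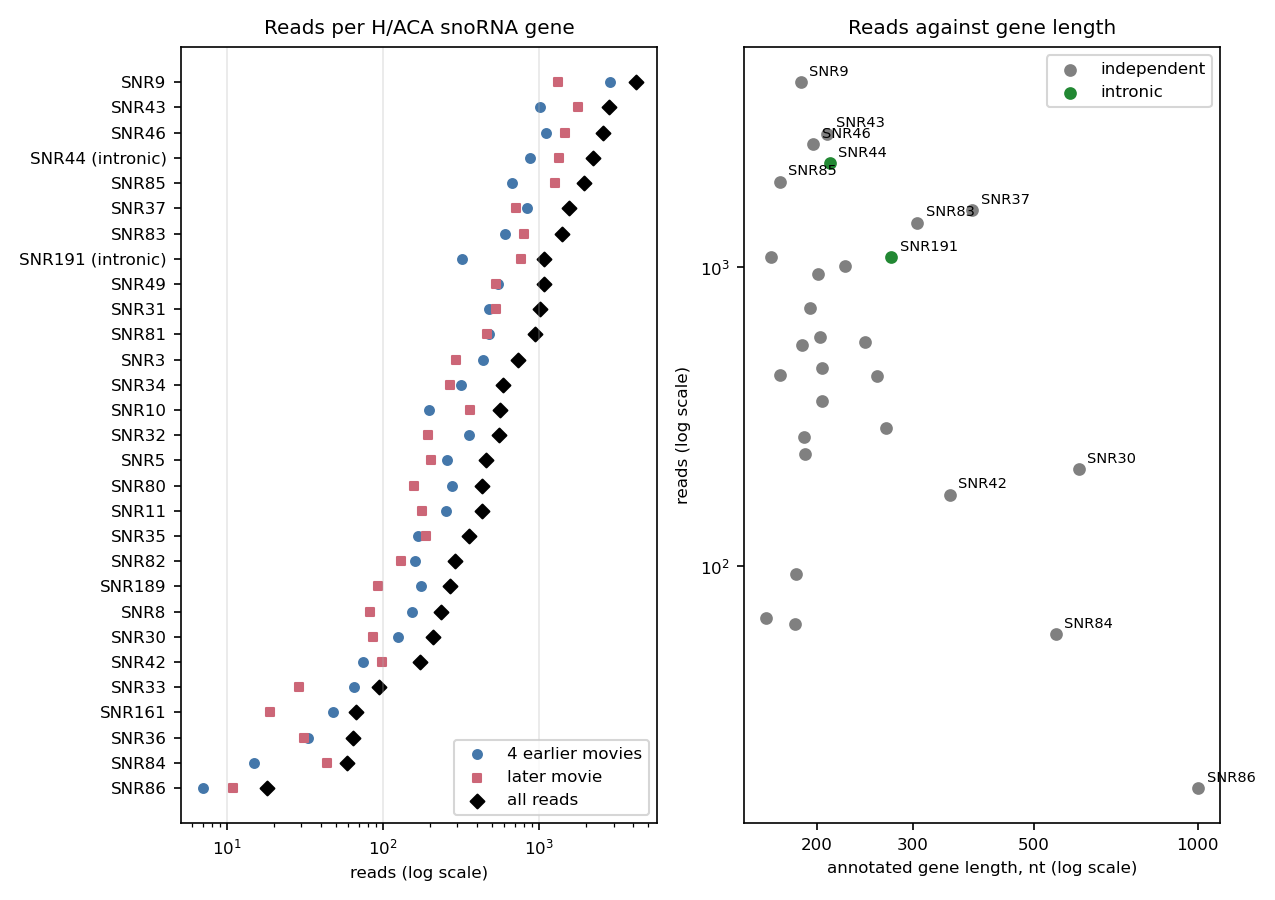
Reads per H/ACA gene (left; log axis; all reads as diamonds, the 4 earlier movies as circles, the later movie as squares) and against annotated gene length (right; both axes log). SNR9 leads with 4158 reads, SNR86 has 18, and the count shows no clear trend with length below 300 nt.

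Reads of H/ACA genes ended at a fixed 3' base, called the mature 3' end where the commonest is meant. Over all 29 genes 93.1% of reads (92.8 to 93.4) had their 3' end within 1 nt of the gene's commonest 3' end, and 86.6% had it at that very base. Precision was at least 90% for 23 genes, with a median over genes of 94.4%. It was 95.6% for SNR43, 95.5% for SNR46 and 94.5% for SNR85. The values were alike in the earlier movies (93.4%) and the later one (92.8%). Ends 1 nt short of the commonest base (4.26% of reads) were more frequent than ends 1 nt past it (2.28%), in 24 genes against 4 with the opposite order. SNR82 was among the latter, with 29 of 290 reads 1 nt past its commonest end and 10 reads 1 nt short of it. In SNR37 a separate group of 49 reads (3.16%) ended 7 nt before the commonest base.

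The least precise 3' ends belonged to SNR86 (16.7%, 5.84 to 39.2), SNR84 (72.9%, 60.4 to 82.6) and SNR82 (87.9%, 83.7 to 91.2). SNR30 had 88.1% (83.0 to 91.8). SNR86, SNR30 and SNR84 are the 3 longest genes. Precision was lower in longer genes (rho -0.71 over the 29 genes), less clearly so among genes up to 300 nt (rho -0.46).

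For 20 genes the commonest 3' end was the annotated last base, and for 22 it lay within 2 nt of it. In the other 7 the reads placed the end elsewhere. It lay 7 nt past the annotated end in SNR80, 5 nt past in SNR85 and 3 nt past in SNR30 and SNR189. It lay 13 nt before it in SNR81, 7 nt before in SNR5 and 3 nt before in SNR31. In each of these genes the reads agreed among themselves, with 88.1% to 95.5% within 1 nt of the shifted base. SNR80 and SNR85 were displaced slightly at the 5' end as well, by 2 nt downstream in both, and SNR81 by 4 nt.

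The 5' ends divided the family. Over all reads, 63.8% (63.2 to 64.4) began within 1 nt of the gene's commonest 5' end, but the median over genes was 27.5% and the range ran from 8.67% to 90.8%. In 12 genes at least 50% of reads shared the commonest start. They are SNR43 (90.8%), SNR85 (89.0%), SNR81 (87.9%), SNR191 (87.1%), SNR46 (81.0%), SNR44 (77.6%), SNR9 (74.6%), SNR31 (73.9%), SNR84 (72.9%), SNR83 (72.5%), SNR80 (67.3%) and SNR49 (57.3%). The other 17 genes had 8.67% to 40.6%, and all but SNR36 (40.6%) were under 30%. These are shares over the pool, and single genes could differ between movies. SNR34, at 28.5% in the pool, had 11.4% in the earlier movies and 48.7% in the later one. The lowest were SNR42 (8.67%), SNR11 (9.03%) and SNR35 (9.80%), while SNR36 and SNR49 lay nearest to the dividing value of 50% from below and above. That value was set after the 5' ends had been seen, so the split is a description. Below, the 12 genes are called fixed and the 17 scattered.

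The scattered genes did not stand below the fixed ones at their 3' ends, with a median precision over genes of 94.5% against 92.5%. Of their 6645 reads, 5112 began at least 10 nt inside the gene and ended within 1 nt of the commonest base. Reads beginning at least 10 nt inside the annotated gene numbered 7639 over all members. Of these, 94.6% had the gene's commonest 3' end to within 1 nt, close to the 93.1% of all H/ACA reads. Gene length did not separate the classes, with medians of 205 nt for the fixed and 204 nt for the scattered genes. Abundance differed in level but overlapped, with 59 to 4158 reads (median 1244.5) in fixed genes and 18 to 1551 (median 290) in scattered ones. Read count and 5' precision rose together, with rho 0.58 over the 29 genes and 0.73 over the 23 of up to 300 nt. These correlations carry no test. The share of reads starting within 5 nt of the annotated 5' end was 71.4% to 94.5% in the fixed genes and 1.86% to 50% in the scattered ones. SNR189 (1.86%) and SNR3 (2.19%) stood lowest.

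**Figure D2:**
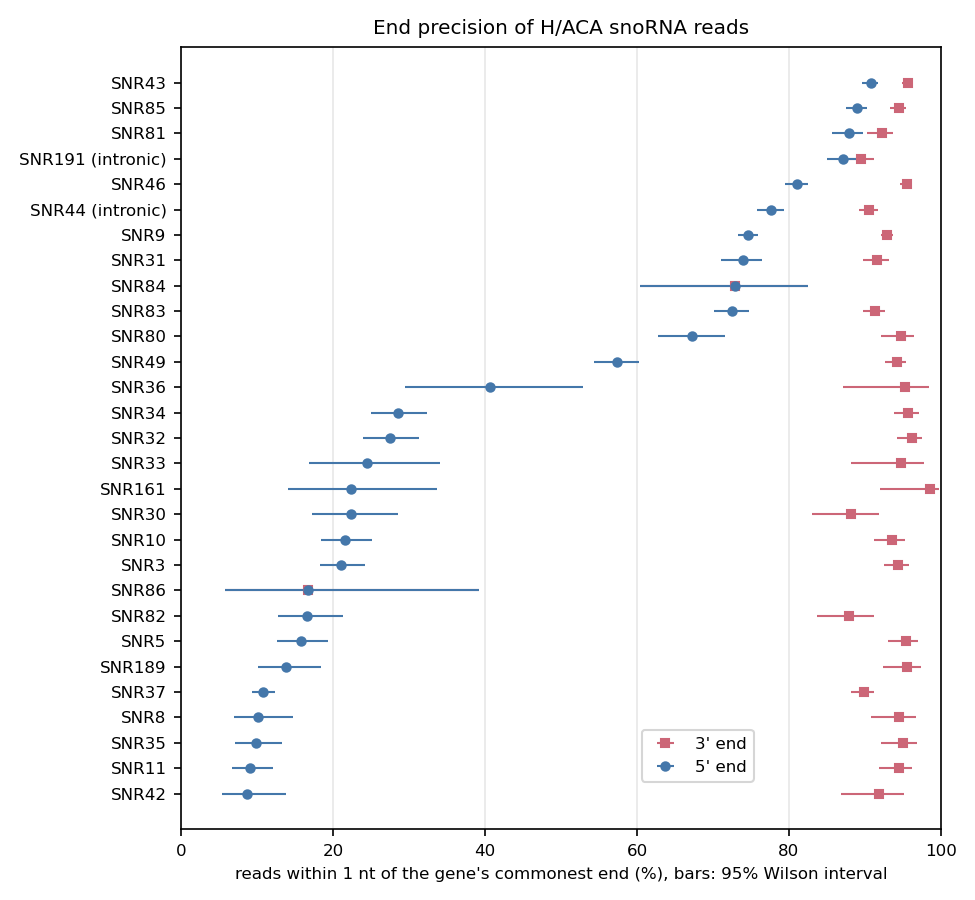
Percent of reads within 1 nt of the commonest 3' end (squares) and 5' end (circles) for each of the 29 genes, with 95% Wilson intervals, ordered by the 5' value. The 3' values lie at or above 87.9% for all genes except SNR84 and SNR86, while the 5' values run from 8.67% to 90.8%.

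Internal starts were not spread evenly. In SNR9, 277 reads (6.66%) began at base 89 of the 187 nt gene, the commonest start beyond the 5' end region. SNR32 had 117 reads (21.3%) at base 62 of 188, and SNR3 had 122 (16.7%) at base 34 of 194. In SNR30 the commonest start of all was base 25 (44 reads, 21.0%), with a further group of 17 reads beginning 197 nt past the annotated start. In SNR37, the annotated start with 157 reads was only slightly ahead of 110 reads beginning 180 nt and 105 beginning 98 nt further in. SNR10 had 118 reads at its annotated start and 47 at base 88. For 10 genes the commonest start of all lay more than 5 nt inside the annotated gene. Several of these pooled shares mix movies that differ. Within 1 nt of the commonest start lay 37.1% of SNR30 reads in the earlier movies and 1.16% in the later one. For SNR32 the shares were 42.1% and 0.515%. SNR3 went the other way, with 11.9% and 34.7%. The cause of these differences was not tested.

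Some genes showed alternative starts at or just outside the annotated end. SNR49 had 594 reads at the annotated base and 203 (18.8%) beginning 3 nt upstream. SNR9 had 2115 at the annotated base and 985 (23.7%) at the next one. SNR46 had 1971 at the annotated base and 139 beginning 4 nt inside. Starts at least 10 nt upstream were rare, 132 reads in 21 genes. SNR11 held 43 of them, 36 beginning 18 nt upstream, which was also its commonest start. SNR36 had 10 of 64 reads there, 7 of them beginning 33 nt upstream, and SNR161 had 6 of 67, of which 5 began 31 nt upstream. A single SNR37 read carried an alignment gap, which placed its 5' part 120753 nt away, and it is counted among these 132.

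**Figure D3:**
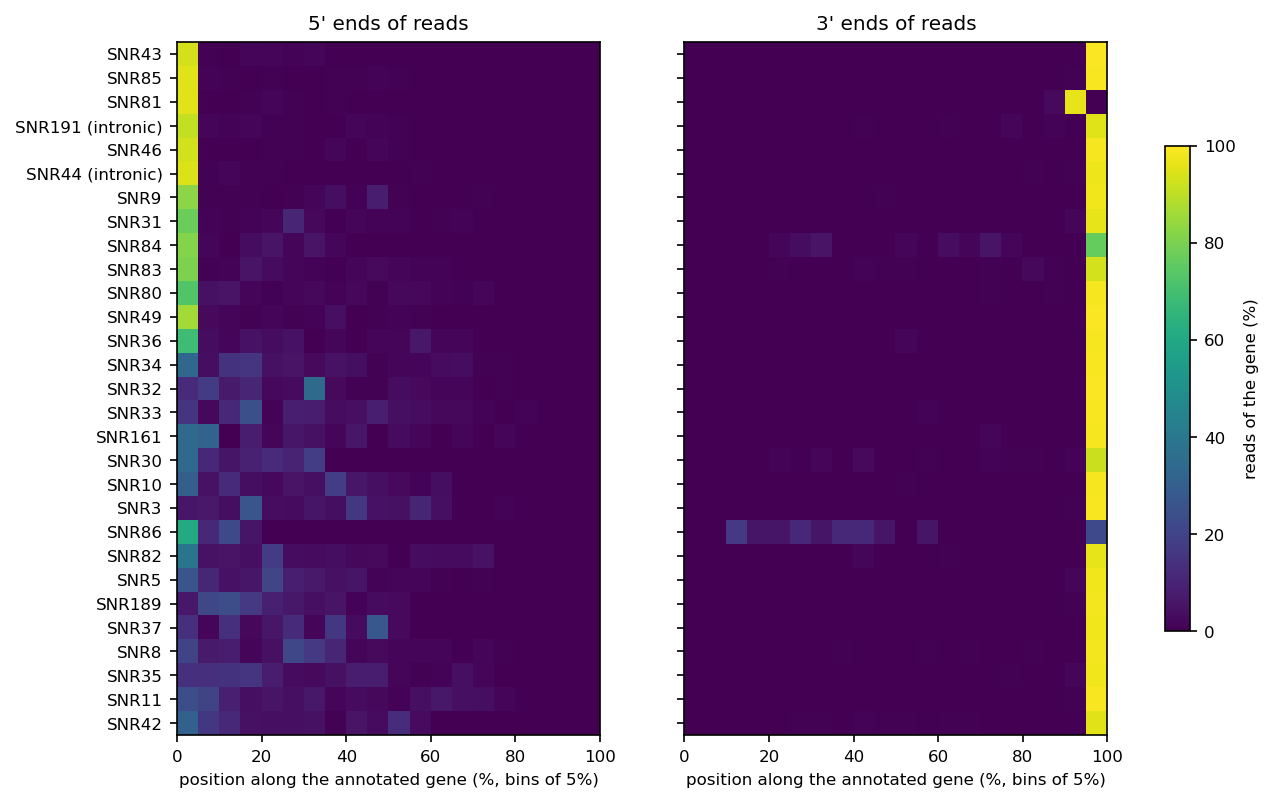
Share of each gene's reads (colour, %) whose 5' end (left) or 3' end (right) falls in each 5% bin of the annotated gene; ends outside the gene are put in the nearest bin. The 3' ends fill the last bin in nearly all genes, apart from SNR81, whose commonest end lies 13 nt before the annotated one, and SNR86 and SNR84, while the 5' ends of the lower genes are spread over the first part of the gene.

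Box C/D snoRNAs, most of which guide ribose methylation, served for comparison. In 19 independently transcribed C/D genes the 3' ends were as precise to within 1 nt as in the H/ACA genes, with 93.6% of reads and a median over genes of 94.5%. At the very base the share was lower, 82.6% (82.0 to 83.2) against 86.6% (86.2 to 87.0) in the H/ACA genes. Ends 1 nt past it made up 5.99% of C/D reads against 2.28%. The 5' precision of these C/D genes was higher, 82.8% of reads with a median over genes of 83.6%. These genes are shorter, with a median of 101 nt. Of the C/D genes compared, 3 were at least as long as the shortest H/ACA gene (161 nt), and their 5' precision was low: 9.42% of 138 reads for SNR63 (255 nt), 19.6% of 388 for SNR4 (186 nt) and 24.0% of 551 for SNR45 (172 nt). At these lengths, low 5' precision was thus seen in both families, and no test of a difference between them was made.

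Few reads ran past the 3' end. Of the 26354 reads, 104 (0.395%, 0.326 to 0.478) ended at least 10 nt beyond the commonest 3' end. A further group ended 2 to 9 nt past it, 0.178% of reads (0.131 to 0.241) in the independently transcribed genes and 0.635% (0.416 to 0.969) in the intronic ones. SNR191 had 14 such reads (1.30%) and SNR44 had 7 (0.315%). Single independent genes ran from 0% to 1.16%, with SNR42 (1.16%), SNR3 (0.82%), SNR37 (0.58%) and SNR10 (0.357%) above SNR44. The extended ends lay 10 to 266 nt past, with a median of 56.5 nt. Of them 45 lay under 50 nt, 26 at 50 to under 100 nt, 26 at 100 to under 200 nt and 7 further out. Extended reads came from 20 genes and were most frequent relative to depth in SNR11 (8 reads, 1.85%), SNR10 (8 reads, 1.43%) and SNR82 (4 reads, 1.38%). SNR9 had 14 (0.34%) and SNR37 had 13 (0.84%).

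The ends of extended reads differed between genes. In SNR10 all 8 lay 22 to 56 nt past the mature end, whereas in SNR11 they lay 36 to 182 nt past it with a median of 146 nt. SNR46 had 5 reads at 11 to 15 nt. In SNR37 the median was 60 nt, with the farthest at 266 nt. Only 5 positions were shared by more than 1 read, at most 3 reads each. In 28 of the 104 the read entered the next annotated gene. For 13 of these 28 that gene was GLO4, which lies 27 nt past SNR9 on the opposite strand, and for 7 it was CMC4, 62 nt past SNR11 and also on the opposite strand.

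No extended read was seen for 9 genes, SNR30, SNR33, SNR34, SNR36, SNR80, SNR84, SNR86, SNR161 and SNR189. With 585 reads, the 0 of SNR34 allows a share of up to 0.513%, and the 434 reads of SNR80 allow up to 0.691%. For SNR30, SNR189, then SNR161, SNR33, SNR36, SNR84 and SNR86 the depth allows 1.43%, 1.12%, 4.48%, 3.19%, 4.69%, 5.08% and 16.7%. In the last 5 of these the limit exceeds the 1.85% seen in SNR11, so an extension rate like that was not detectable there. The later movie, with longer reads, gave 82 of the 104 extended reads, 0.61% of its H/ACA reads against 0.171% in the earlier movies.

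**Figure D4:**
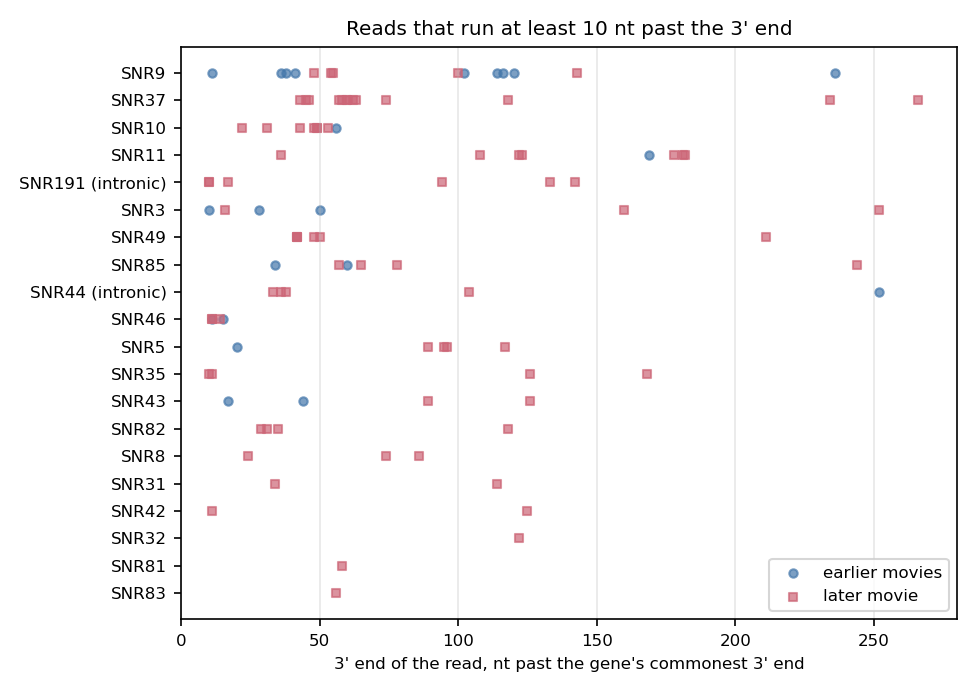
Distance of the 3' end past the gene's commonest 3' end for the 104 reads that extend at least 10 nt, by gene; circles are reads of the earlier movies and squares of the later one. The distances run from 10 to 266 nt, short in SNR10 and SNR46 and long in SNR11.

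Extended reads of the scattered genes began at the annotated 5' end. Among the 54 extended reads of these genes, 46 started within 5 nt of it (85.2%, 73.4 to 92.3), and 44 started at that very base. Among the 6178 reads of the same 17 genes that ended at the mature 3' end, 824 did so (13.3%, 12.5 to 14.2). This low share is in part set by the split, since the 17 genes were classed by the starts of all their 6645 reads. The same holds for the shares over all reads of single genes given below. The intervals cover the counting of reads only, and no test was made. In SNR11 7 of 8 extended reads began at the annotated base and the remaining read 3 nt inside, while 10.4% of all SNR11 reads began within 5 nt of it. All 8 extended reads of SNR10, all 4 of SNR35, all 4 of SNR82 and all 3 of SNR8 began at the annotated base, against 24.8%, 9.52%, 31.7% and 12.7% within 5 nt of it among all reads of these genes. SNR37 had 10 of 13 and SNR5 had 4 of 5. SNR3 was lowest, with 2 of 6, but still above its 2.19% over all reads. In each of the 10 scattered genes with extended reads the share was higher than over all reads of the gene. Some of these shares rest on very few reads, with 2 extended reads in SNR42 and 1 in SNR32.

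Most of these extended reads come from the later movie, whose reads are longer. Within that movie 43 of 48 extended reads (89.6%, 77.8 to 95.5) and 459 of 2748 reads with a mature 3' end (16.7%, 15.4 to 18.1) began within 5 nt of the annotated start. The earlier movies gave 3 of 6 (18.8% to 81.2%) and 365 of 3430 (10.6%, 9.65 to 11.7). With identical alignments counted once the shares were 84.6% of 52 and 8.20% of 1536. This counting merges reads that share both ends, which in these genes are nearly all mature reads. It therefore cannot serve as a check on the contrast. Only 2 reads touched an H/ACA gene on its strand without meeting the overlap rule, and reads beginning past a gene's 3' end were not counted. Whether the selection of cDNA by length plays a part was not tested. In the fixed genes the corresponding shares were 76.0% of 50 extended reads (62.6 to 85.7) and 86.9% of 18359 reads with a mature 3' end. There, 9 of the 50 extended reads began at least 10 nt upstream of the annotated start, against 21 of the 18359. With identical alignments counted once, the fixed genes gave 74.5% of 47 extended and 16.7% of 938 mature reads. A gene with a sharp start keeps few alignments there once reads with the same ends are merged. These shares therefore cannot show what the contrast between the classes in their mature reads rests on. Whether PCR copies play a part was not tested.

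**Figure D5:**
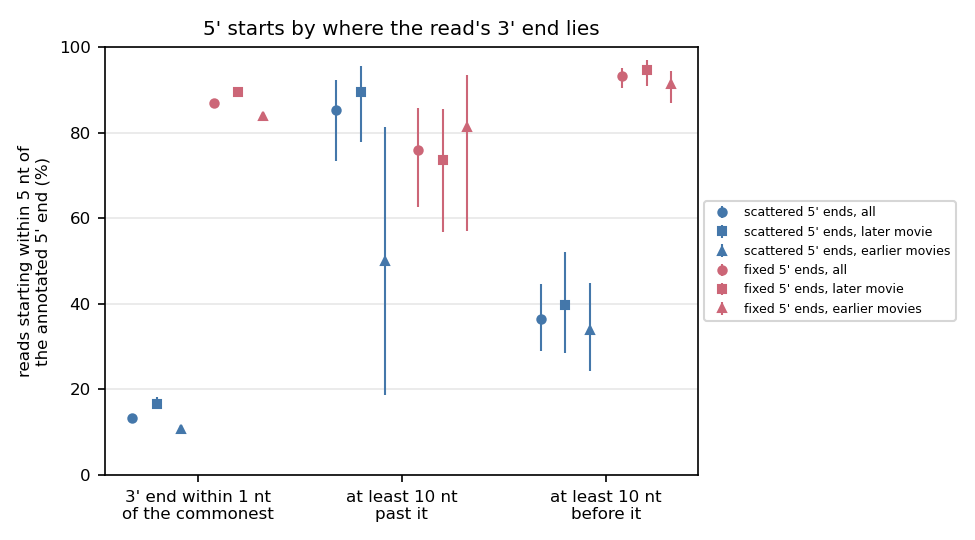
Percent of reads that begin within 5 nt of the annotated 5' end, by where the read's 3' end lies, for the 17 genes with scattered and the 12 with fixed 5' ends; bars are 95% Wilson intervals over reads. In the scattered genes the share is 13.3% for reads with the mature 3' end and 85.2% for extended reads, while in the fixed genes it is 86.9% and 76.0%. The classes were split on the starts of these same reads.

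Reads that stopped short on the 3' side made up 2.19% (2.02 to 2.37), 577 reads that ended at least 10 nt before the commonest 3' end. Such reads tended to hold the 5' end: 79.4% of them began within 5 nt of the annotated start, against 68.8% of all H/ACA reads. In the scattered genes this was 36.4% of 140 reads, between the shares for mature and extended 3' ends. The highest shares of internal 3' ends were those of SNR86 (15 of 18 reads, 83.3%), SNR84 (15 of 59, 25.4%) and SNR30 (19 of 210, 9.05%). In all 3 genes every such read ended at a base of its own. SNR83 came next with 99 of 1408 (7.03%, 5.81 to 8.49), and 19 of its 99 ended at the same base, 48 nt before the 3' end.

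The 15 internal ends of SNR86 lay 42 to 898 nt before the 3' end with a median of 699 nt, so most of its reads covered its first part. Only 2 of its 18 reads ended at the annotated last base, and a single read reached from start to end within 1 nt of the commonest bases. SNR84 was read from end to end in 30 of 59 reads (50.8%), although it is 550 nt long and 95% of the pool's reads were at most 274 nt. SNR30, of similar length, was read from its commonest start at base 25 to its 3' end in 43 of 210 reads (20.5%). Among the 10 genes with most reads the full-length share ran from 86.8% for SNR43 and 84.2% for SNR85 to 8.19% for SNR37. Between these lay SNR191 (77.8%), SNR46 (76.9%), SNR44 (70.4%), SNR9 (68.9%), SNR31 (67.3%), SNR83 (65.1%) and SNR49 (54.4%).

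The intronic members SNR44, in the ribosomal protein gene RPS22B, and SNR191 (chromosome XIV, 721938 to 722211), in the gene of the ribosome assembly GTPase Nog2, both belonged to the fixed class. Their pooled 5' precision was 80.7% (79.3 to 82.0) of 3305 reads, against 61.4% (60.8 to 62.0) of 23049 reads for the 27 independent genes, a difference of 19.3 points (17.8 to 20.8). Of the independent genes 10 were also fixed, and SNR43, SNR85 and SNR81 exceeded both intronic ones in 5' precision. At the 3' end the intronic genes were less precise, 90.2% (89.1 to 91.1) against 93.5% (93.2 to 93.8). That difference was -3.36 points (-4.47 to -2.34). SNR44 (90.5%) and SNR191 (89.5%) lay within the wide range of the independent genes, 16.7% to 98.5%, but below their median of 94.4%. With only 2 intronic genes in a single pool, these intervals cover the counting of reads and not variation between genes. Intron-encoded C/D genes had a 5' precision of 90.8% pooled, with a median of 67.6% over 7 genes, and a 3' precision of 91.2%.

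SNR44 had more than a single start and end. Reads began 1 nt upstream of the annotated start in 1636 cases (73.6%) and 4 nt inside in 316 (14.2%). They ended 1 nt before the annotated last base in 1821 cases (81.9%). Of its 53 reads with internal 3' ends, 12 shared a base 40 nt before the commonest end. SNR191 began at the annotated base in 906 reads (83.8%) and ended at the annotated base in 910 (84.2%). It had 54 internal 3' ends (5.00%), 12 of them at a base 59 nt before the end, and 52 of 53 in SNR44 and 53 of 54 in SNR191 began within 5 nt of the annotated start.

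Precursor reads of the intronic genes were scarce. SNR44 had 5 extended reads, all beginning within 5 nt of the annotated start and so extended on the 3' side only. SNR191 had 6, of which 4 were extended on both sides and began 51 to 176 nt upstream. No other reads of SNR191 began that far upstream. Apart from the snoRNA itself, 2 reads touched RPS22B, 1 of which had a gap from 856575 to 857057 that spans SNR44 and was taken as the removed intron. For NOG2 the number was 0, which allows up to 3 reads. None of the reads of SNR44 or SNR191 held a gap.

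Other genes of the pathway were hardly covered. Among the H/ACA proteins, CBF5, GAR1 and NOP10 had 1 read each and NHP2 had 0. The assembly factors NAF1 and SHQ1 had 0. Of the genes for cap trimethylation and 3' end formation, NRD1 and NAB3, which encode RNA-binding factors of snoRNA termination, had 1 each. TGS1, SEN1, RRP6 and RNT1 had 0. On the strand opposite the H/ACA genes there were 0 reads meeting the overlap rule, which allows up to 0.0114% of the H/ACA total.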

How the data were processed

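Nascent RNA of 2 S. cerevisiae samples was analysed as 1 pool, and the other 8 samples of the series were not used here. Per the labels' protocols, a DNA adaptor holding random bases was joined to RNA 3' ends, followed by cDNA synthesis with a SMARTer kit and low-cycle PCR. The submitters' processing notes name sacCer3 and cutadapt 1.8; the aligner is not given in the sources used here. For each alignment the authors deposited 1 line with its span and blocks, and a score that was 40 throughout and was not used. The random bases were not used, so PCR copies could not be removed and intervals cover counting error only. Gene spans came from RefSeq R64, the assembly on which sacCer3 rests, without sequence, and strands from the last letter of the locus tags. A read went to the gene it overlapped most among those meeting the rule. The commonest end was the most frequent position, ties going to that nearest the annotation. Read ends were compared with Python 3.11.15 and statsmodels 0.14.6, and the code was tested on simulated reads. Each member is reported, in more detail those at the extremes of each measure, the intronic ones, SNR30 and SNR10. The members, lists and measures were chosen with earlier results of these data known. Alternatives were identical alignments counted once, movies apart, an overlap of 90%, annotated ends, other distances, and leaving out the gene with most reads.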

Additional observations from a re-analysis of the deposited data

How the results depend on the processing

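No paired analysis was possible because the replicates stand in 1 file and cannot be told apart, and for the same reason no replicate could be left out. Requiring an overlap of 90% kept all 7 pooled values within their interval or 1.5 times. Counting identical alignments once, which left 3466 of the reads (13.2%) and gives each rare end the weight of a frequent one, moved most values. The H/ACA share became 27.8%, the median per gene 120 reads, 3' precision 71.4%, 5' precision 18%, 3' extensions 2.86%, internal 3' ends 12.2% and internal 5' starts 65.9% (23.7% in the pool, at least 10 nt past the commonest start), and the 3' difference of intronic genes -15.1 points. In the earlier movies the H/ACA share was 19.6%, the median 275 reads, 5' precision 60.9%, 3' extensions 0.171%, internal starts 23.2% and the 5' difference of intronic genes 22.6 points. The later movie gave 38.2%, 202 reads, 67.8%, 0.61%, 14.5% and 14.9 points, with the commonest ends found anew in each set. Measured from the annotated ends, 3' precision was 73.4%, 5' precision 51.4%, internal 3' ends 5.70% and internal starts 29%, since several genes have shifted ends. Without SNR9, 5' precision was 61.8% and internal starts 24.9%. A tolerance of 3 nt gave a 3' precision of 95.6% and a 5' precision of 68.1%, and a distance of 20 nt gave 1.81% internal 3' ends and 21.9% internal starts. Counting identical alignments once, using the annotated ends and widening the limits change the end values by construction. The cause of the other shifts was not tested. The alternatives for the starts of extended reads were chosen after seeing the data. Genes with under 100 reads have wide intervals, above all SNR86 with 18.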
